A study of Mus musculus with 12 samples.

Results

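The miRNAs described here are those with a late serial number in miRBase, the registry that numbers miRNAs in the order of their annotation. Members were the rows of the deposited count table that are named mir with a number of 3000 or above and that have a summed count of at least 100 over all 12 libraries. These criteria gave 144 members among the 1978 entries of the table. Of the 991 entries with such a number at any count, 360 were listed at 0 in every library. Members were thus chosen by their summed counts, and their abundance is a description. The members nearest to the limit from above were miR-7083-5p, miR-7236-3p and miR-7650-5p, each with a summed count of 104, and the nearest below were miR-3100-5p and miR-7237-3p with 99 each.

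Small RNA was sequenced from the whole colon and the whole blood of 6 male C57BL/6 mice aged 8 weeks. Colitis was induced in 3 of them with dextran sulfate sodium (DSS), a chemical that injures the colonic epithelium, at 1.5% (wt/vol) in the drinking water for 7 days, and sacrifice followed on day 8. The 3 control mice drank water without DSS. The 3 mice of each group were a selection made by disease activity index. Mice 1, 7 and 9 were grouped as DSS and 2, 4 and 8 as control, following the sample names in the figures of the study. The disease state in the sample labels differs, giving colitis for mice 1, 2 and 4 and control for mice 7, 8 and 9, and the labels' source and tissue fields name opposite tissues. The grouping by labels was run as an alternative, and every DSS result below holds for the first grouping only.

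A miRNA is a short RNA cut from a hairpin, and either arm of the hairpin, 5p or 3p, can be the strand that is kept. Bases 2 to 8 of the mature miRNA form the seed, which pairs with target mRNAs. Most hairpins are released from a primary transcript by the nuclease Drosha and then opened by Dicer. In a mirtron the splicing machinery takes the place of Drosha, so an end of the hairpin is an end of an intron, and many mouse mirtrons were recognised only after deep sequencing.

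The mature sequences come from the deposited tables, which hold one for all 144 members. RefSeq (GRCm38.p6) holds 125 of them, all 125 identical to the deposited ones. The first set shows the members with the highest levels and those with the clearest differences described below, with the seed in capitals.
miR-5099: uUAGAUCGauguggugcucc
miR-5126: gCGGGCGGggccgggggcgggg
miR-6538: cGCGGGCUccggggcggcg
miR-3074-5p: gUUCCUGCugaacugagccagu
miR-5113: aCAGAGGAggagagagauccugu
miR-5134-3p: aCGGGUGGcccucuuucugcag
miR-3095-3p: uGGACACUggagagagagcuuuu
miR-3099-3p: uAGGCUAGagagagguugggga
miR-3535: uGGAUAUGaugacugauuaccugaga
miR-5123: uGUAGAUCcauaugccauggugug
miR-3064-5p: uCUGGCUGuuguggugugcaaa
miR-3066-5p: uUGGUUGCuguagauuaaguag
The 144 members had 143 distinct seeds, and miR-3473b and miR-3473e were the pair with the same one.

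The second set shows 3p arms whose last base is the last base of an intron. Capitals mark the final AG, the dinucleotide with which nearly all introns end.
miR-7043-3p: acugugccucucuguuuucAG
miR-3076-3p: cgcacucuggucuucccuugcAG
miR-7015-3p: ucucacuguccucugcacuAG
miR-6965-3p: ucugugcucggucucgcuccAG
miR-3103-3p: uaaccucugauccuucccacAG
miR-6900-3p: uggugaugggcucucuuguAG
Mir7091, shown whole with both mature arms in capitals, is an intron from end to end.
Mir7091: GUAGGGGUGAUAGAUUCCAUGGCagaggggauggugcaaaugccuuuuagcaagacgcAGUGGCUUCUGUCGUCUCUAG
It lies at chrX:74274027-74274105 on the minus strand of GRCm38 and equals an intron of 79 nt in Dnase1l1.

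A further set shows members that share a run of bases with one another, marked in capitals.
miR-3473b: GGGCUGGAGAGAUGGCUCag
miR-3473e: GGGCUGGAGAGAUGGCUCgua
miR-3470a: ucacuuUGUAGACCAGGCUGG
miR-3470b: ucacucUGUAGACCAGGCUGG
miR-3963: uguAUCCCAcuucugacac
miR-3968: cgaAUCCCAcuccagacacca
miR-5100: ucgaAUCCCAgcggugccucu
The last set shows members that differ by 1 or 2 bases from an abundant miRNA where the sequences overlap. The known miRNA is printed above each member, with the differing bases in capitals. Bases beyond the overlap, such as the first base of miR-3969, are not counted or marked.
let-7g-5p: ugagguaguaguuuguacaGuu
miR-3962: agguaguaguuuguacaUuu
let-7i-5p: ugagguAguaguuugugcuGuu
miR-3970: gagguUguaguuugugcuUu
miR-142a-5p: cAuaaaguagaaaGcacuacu
miR-3969: ccCuaaaguagaaaUcacua

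Total counts were 15060553 to 20106226 in the colon libraries and 21127134 to 32944792 in the blood libraries. The 4 erythroid miRNAs listed as markers (miR-451a, miR-144-3p, miR-144-5p and miR-486a-5p) summed to 438677 to 660065 CPM in blood against 1296 to 2000 CPM in colon, where CPM is the usual depth-scaled count, here with TMM factors from all 12 libraries together. The 9 listed epithelial miRNAs summed to 42089 to 160131 CPM in colon and to 1178 to 1761 CPM in blood. No listed marker was at 0 in either tissue, and the tissue names match these markers.

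The members held a small share of each library. It was 0.0431% ± 0.0120 in the colon of DSS mice, 0.0485% ± 0.0247 in the colon of control mice, 0.101% ± 0.0113 in the blood of DSS mice and 0.0918% ± 0.0146 in the blood of control mice (SD, n = 3 each). Between 122 and 134 of the members had a count in a colon library and between 135 and 139 in a blood library. In bulk tissue, fewer cells of a type and less RNA per cell cannot be told apart.

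The place of each hairpin was read from the GRCm38 annotation. A hairpin with an end within 5 nt of an intron end was placed at an intron boundary, and this held for 57 members from 51 hairpins. A further 38 members lay inside an intron, 30 overlapped an exon of at least 1 transcript, 18 lay outside genes on their strand, and miR-12191-3p had no position. All 51 boundary hairpins lay at the 3′ end of the intron, and 44 of them ended exactly on its last base. In 3 hairpins the 5′ end was also the first base of the intron. These were miR-3102 in Arhgef17, miR-7068 in Cherp and miR-7091 in Dnase1l1, named for this after their ends had been seen. In the rest the intron ran on upstream of the hairpin. The introns measured 74 to 36269 nt, with a median of 504 nt.

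The last base of the mature miRNA showed the same arrangement without use of the hairpin. Of the 42 3p arms with a RefSeq position, 20 ended exactly on the last base of an annotated intron of their strand (47.6%). Among 188 3p arms of the other entries with a summed count of at least 100, 1 did (0.532%). None of the 51 5p arms of the members did. By sequence, 23 of 50 3p arms of the members ended in AG (46%), and 10 of 218 3p arms of the other entries did (4.59%). For 5p arms the same count was 4 of 56 (7.14%) and 20 of 223 (8.97%).

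**Figure D1:**
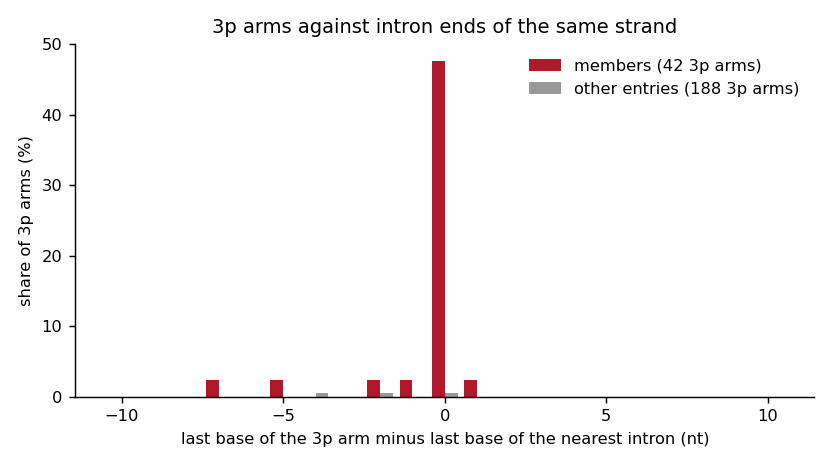
Share of 3p arms (%, vertical axis) by the distance in nt from the last base of the nearest intron on the same strand to the last base of the arm (horizontal axis, shown from −10 to 10), for 42 members and 188 other entries. The bar of the members at 0 nt stands at 47.6% and that of the other entries at 0.532%.

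Base composition also differed. The median GC content was 55.0% in the members and 47.8% in the other 472 entries with a summed count of at least 100. The median share of G in 5p arms was 40.9% in the members and 27.3% in the other entries. A first base of U was found in 45.8% of the members and 38.8% of the other entries.

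miR-3076-3p, the boundary member with the highest summed count, ends with an intron of Tkt, which encodes transketolase of the pentose phosphate pathway. miR-7015-3p, the next, ends with an intron of Smap2, and miR-3064-5p comes from the end of an intron of Ddx5, an RNA helicase that works with Drosha. Cyclin F (Ccnf) holds a pair of hairpins. miR-6965-3p ends on the last base of a 504 nt intron at chr17:24240884-24240947, and miR-5134-3p ends on that of another although its hairpin, at chr17:24234527-24234604, runs on into the exon. The hairpin of miR-5113 overlaps an exon of Tnrc6b, whose protein is a scaffold of the miRNA silencing complex.

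The comparison of blood with colon asked where each member was found. The authors preserved blood and colon in different reagents and extracted their RNA with different kits. In every comparison of the tissues here, tissue and RNA preparation therefore cannot be told apart. Every blood library was above every colon library in 96 of the 144 members (66.7%), and the reverse held for 18 (12.5%). Over all 616 entries with a summed count of at least 100, members included, these shares were 33.6% and 44.3%. Among the 57 boundary members 42 were higher in every blood library and 5 in every colon library. The same counts were 24 and 7 of 38 inside introns, 22 and 3 of 30 over exons, and 8 and 2 of 18 outside genes.

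The edgeR quasi-likelihood test on all 680 miRNAs that passed the filter on low counts called 109 of the 143 members tested higher in blood (background 37.6%) and 23 higher in colon (background 51%). miR-7079-3p did not pass the filter. A member that is high in a single tissue passes the filter through that tissue, so these counts lean toward differences. The 49 members that also passed the filter in each tissue alone held 32 called higher in blood and 7 higher in colon. Of the 357 miRNAs that passed in both tissues, 38.4% and 44.3% were called in these directions. With these scaling factors the median log2 difference, blood minus colon, was 2.86 over the members tested and -0.86 over all 680. With scaling by total counts alone these medians were 2.13 and -1.59.

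Among the members of highest level in blood, miR-5126 from the strand opposite to Dner was 229 to 415 CPM in the blood libraries (median 287) and 1.71 to 125 CPM in the colon libraries (median 7.63). miR-3074-5p was 74.8 to 153 CPM in blood (median 106) and 1.21 to 2.43 CPM in colon (median 1.43). Its hairpins lie on chromosomes 13 and 8, on the strand opposite to the hairpins of miR-24, an abundant miRNA. The 2 tissues did not overlap in either member, and the log2 difference of miR-3074-5p was 6.14 (SE 0.27, edgeR's quasi-likelihood test, Benjamini-Hochberg adjusted p = 1.32e-11).

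miR-5113 was 52.7 to 132 CPM in blood (median 78.8) and 0.614 to 1.47 CPM in colon (median 0.916), a log2 difference of 6.31 (SE 0.32, edgeR's quasi-likelihood test, adjusted p = 4.58e-11). In miR-6412 the blood libraries spanned 24.3 to 82.8 CPM and the colon libraries 0.755 to 1.56 CPM. miR-5134-3p was 29.8 to 50.8 CPM in blood (median 37.8) and 0.284 to 0.395 CPM in colon (median 0.308), with 44 and 4812 counts in colon and blood and a fitted log2 difference of 6.90. It passed the filter through blood alone, and no p is given for it. In all 3 the lowest blood library lay far above the highest colon library.

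Some members were all but absent from colon. miR-7036b-3p, from an exon of Add1, had 488 counts in blood and 1 in colon, a ratio of 549 with an exact 95% counting interval of 98.0 to 21715. miR-6965-3p had 454 and 1, a ratio of 510 (91.2 to 20205), and miR-6967-5p, whose hairpin has copies in Kifc1 and Kifc5b, had 304 and 1, a ratio of 342 (60.9 to 13544). miR-7003-5p, at an intron boundary of Mybl2, had 147 counts in blood and 0 in colon. With 3 counts over the 6 colon libraries as the floor the ratio was 55.1, and its exact 95% counting interval starts at 44.2. Reads carry no molecular identifiers, and these intervals and floors cover counting error only. The erythroid markers moved with these members, and the part of blood cells in their levels was not tested.

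miR-5099, from chromosome 12 outside genes, was the member with the highest level in colon. It was 80.1 to 162 CPM in colon (median 126) and 7.72 to 20.8 CPM in blood (median 14.9), a log2 difference of -3.17 (SE 0.29, edgeR's quasi-likelihood test, adjusted p = 5.17e-08). The colon libraries all lay above the blood libraries. The 4 members with the largest fitted difference toward colon lay inside introns. Their hosts were Lpar1, a receptor for lysophosphatidic acid (miR-3095-3p), Usp29 (miR-3099-3p), Boc, a co-receptor of hedgehog signalling (miR-3081-3p), and Shank2, a synaptic scaffold (miR-3105-3p). Members with few blood counts also lay elsewhere, as miR-7083-5p at an intron boundary with 103 counts in colon and 1 in blood.

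miR-3095-3p was 7.96 to 12.7 CPM in colon and 0 to 0.147 CPM in blood, where it had 7 counts in all, with a fitted log2 difference of -7.37. It passed the filter through colon alone, as the other 3 did, so the counts are given as a description. miR-3099-3p had 767 counts in colon and 0 in blood. With 3 counts over the 6 blood libraries as the floor the ratio was 227, and its exact 95% counting interval starts at 184. miR-3081-3p had 687 and 3 counts, a ratio of 204 (exact 95% counting interval 69.4 to 990), and miR-3105-3p had 255 and 1, a ratio of 227 (40.3 to 8993). Every blood library had more counts in total than every colon library.

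**Figure D2:**
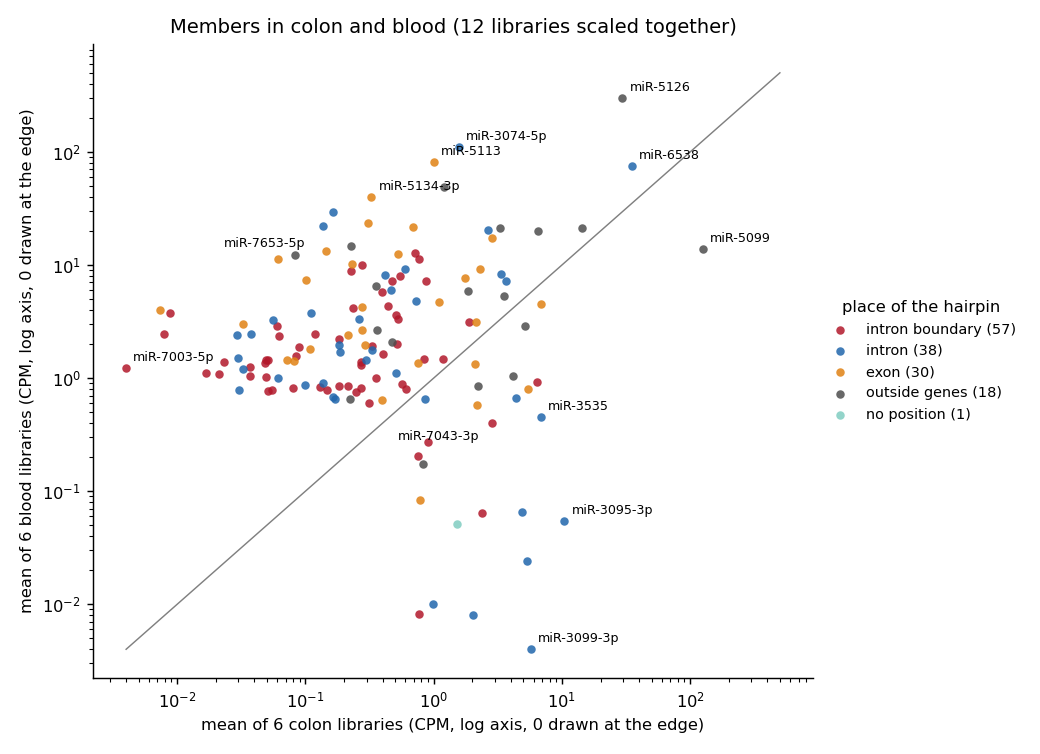
Mean level of each of the 144 members over 6 colon libraries (horizontal axis, CPM, log scale) and 6 blood libraries (vertical axis, CPM, log scale), coloured by the place of the hairpin, with values of 0 drawn at the edge. The line marks equal levels, and most points lie above it, with miR-3099-3p at 0 in blood and miR-7003-5p at 0 in colon.

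The arms of a hairpin could be compared for 15 hairpins whose arms were both members. The 5p arm had the higher summed count in 9 of the 15. In miR-5134 the 3p arm held 68.8% of the reads of both arms in colon and 74.7% in blood, and in miR-3103 it held 59.4% and 58.1%.

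Other hairpins had different ratios of the arms in the tissues. miR-3066, inside an intron of Nol10, had 111 counts of the 5p arm and 4 of the 3p arm in colon and 81 and 182 in blood. Its 3p share was 0% to 8.00% in the colon libraries (median 2.0%) and 38.1% to 96.2% in the blood libraries (median 73.1%), without overlap. In miR-3061, over an exon of Ppp2ca, the 3p share was 72.7% to 85.3% in colon and 45.05% to 66.2% in blood. The 3p share of miR-3068 was 33.9% to 56.4% in colon and 4.03% to 40.9% in blood, so its tissues overlapped. miR-3066 and miR-3061 were chosen after their values had been seen, and these shares were not tested. miR-7653, over an exon of Tlcd1, had 1371 counts of its 5p arm and 358 of its 3p arm in blood against 8 and 4 in colon.

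The comparison of DSS mice with control mice asked whether colitis changed the members in each tissue. In colon, 65 of the 144 members passed the filter and were tested among 542 miRNAs. Significantly differentially expressed (SDE) means a fold change over 1.5 together with a p, adjusted by the Benjamini-Hochberg method, no larger than 0.05. By edgeR's quasi-likelihood test 1 member was SDE and higher in DSS mice (background 5.9%), and 0 were SDE and lower (background 4.24%, both directions together 10.1%). An unadjusted p under 0.05 was reached by 9 members, beside 31.4% of all 542 miRNAs. DESeq2's Wald test called 2 members (background 13.7%), the same one higher and miR-3535 lower, limma on the deposited values called 1 (background 6.83%), and edgeR without the filter on low counts called 1 (background 5.85%). The 3 DSS mice were separated from the 3 control mice in 12 of the 65 members (background 38.6%), 7 higher (background 22.5%) and 5 lower in DSS mice (background 16.1%). P-values measure the spread between the mice of a group.

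The SDE member was miR-7043-3p. It ends on the last base of an intron of Rassf4, which encodes a protein with a Ras association domain, and its hairpin lies at chr6:116645978-116646047 on the minus strand. In colon it was 6.02, 5.19 and 4.14 CPM in DSS mice 1, 7 and 9 and 1.87, 2.66 and 2.19 CPM in control mice 2, 4 and 8. The lowest DSS mouse lay above the highest control mouse. The log2 fold change was 1.18 (SE 0.24, edgeR's quasi-likelihood test, Benjamini-Hochberg adjusted p = 0.0431). In blood it had 46 counts in all and was not tested. The call was lost without mouse 1, 2, 4, 7 or 8 (adjusted p = 0.0535 to 0.151), with RLE factors (0.0522) and with all 12 libraries in 1 fit (0.210), and with the labels' grouping the log2 difference was -0.14 (adjusted p = 0.991).

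miR-3099-3p was 10.8, 10.6 and 6.23 CPM in DSS mice 1, 7 and 9 and 5.47, 5.31 and 6.08 CPM in control mice 2, 4 and 8. DSS mice 1 and 7 stood apart, and mouse 9 lay just above the controls. The log2 fold change was 0.71 (SE 0.24, edgeR's quasi-likelihood test, adjusted p = 0.0997). Scaling by total counts alone (adjusted p = 0.0487) or leaving out mouse 9 (0.0381) brought it past the threshold. The other members with every DSS mouse above the controls and the smallest p were miR-3473g, miR-5107-5p over an exon of Cd74 (the invariant chain of MHC class II) and miR-7219-3p. Their log2 fold changes were 0.93, 0.71 and 0.79, with adjusted p-values from 0.122 to 0.136 by the same test. miR-7688-5p, named after its values had been seen, was also separated, with a log2 fold change of 0.34 (adjusted p = 0.263).

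Below the controls in every DSS mouse was miR-3535, which lies in an intron of Ncl, the gene of nucleolin, inside the snoRNA Gm24148. Its levels were 7.88, 5.41 and 7.12 CPM in DSS mice 1, 7 and 9 and 11.6, 12.3 and 8.59 CPM in control mice 2, 4 and 8. The groups were separated by the gap between DSS mouse 1 and control mouse 8. The log2 fold change was -0.67 (SE 0.22, edgeR's quasi-likelihood test, adjusted p = 0.0899), and DESeq2's Wald test gave -0.74 with an adjusted p of 0.0404. The reads of the snoRNA and of the miRNA cannot be told apart in this table.

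The other members below the controls in every DSS mouse were boundary members miR-6986-5p of Rce1, miR-7084-5p of Elof1 and miR-7049-5p of Pak4, and miR-3474 over an exon of Actr5. miR-6986-5p was 0.430, 0.507 and 0.503 CPM in DSS mice and 0.733, 0.845 and 1.07 CPM in control mice. The log2 fold changes of these 4 were -0.86, -0.997, -1.18 and -0.45 in that order, with adjusted p-values from 0.119 to 0.209 by edgeR's quasi-likelihood test. The median log2 fold change was -0.22 over the 65 members and 0.04 over all 542 miRNAs, and with total counts alone 0.01 and 0.26.

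Some markers of other cell types differed between the groups in colon. The 9 epithelial miRNAs summed to 55648 to 136210 CPM in DSS mice and 162998 to 204144 CPM in control mice, and 4 of the 9 were SDE and lower by edgeR and 7 by DESeq2. The 2 myeloid miRNAs listed (miR-223-3p and miR-142a-3p) summed to 40.5 to 131 CPM in DSS mice and 18.3 to 25.2 CPM in control mice, and edgeR called 1 of them SDE and higher and DESeq2 both. The endothelial marker miR-126a-3p was 6719 to 7211 CPM in DSS mice and 5044 to 5452 CPM in control mice and was not SDE by either tool. The listed erythroid, smooth muscle, striated muscle and liver markers overlapped between the groups in their sums and were not SDE by either tool. None of these markers was at 0. Their part in the members' differences was not tested.

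In blood, 126 members were tested among 484 miRNAs, and edgeR's quasi-likelihood test called 0 of them (background 0%). An unadjusted p under 0.05 was reached by 9 members, beside 11.6% of all 484, and DESeq2's Wald test called 0 of the 54 members to which it gave an adjusted p (background 3.39%). Without the filter on low counts edgeR called 1 member higher and 5 lower, 4.2% of the 143 members beside a background of 2.23% for both directions. The groups were separated in 13 members (background 17.4%), 4 higher (background 7.44%) and 9 lower in DSS mice (background 9.92%). As shares of the 126 members tested these were 3.17% and 7.14%, below the background in each direction.

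The smallest p belonged to miR-5123, from inside an intron of B4galt1, a galactosyltransferase. In blood it was 0.579, 0.742 and 1.06 CPM in DSS mice 1, 7 and 9 and 2.61, 2.99 and 1.76 CPM in control mice 2, 4 and 8. Every DSS mouse lay below every control mouse. The log2 fold change was -1.64 (SE 0.34, edgeR's quasi-likelihood test, adjusted p = 0.165), and without the filter the adjusted p was 0.00194. In colon miR-5123 had 26 counts in all.

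miR-3064-5p, from the intron end in Ddx5, was 1.94, 1.77 and 1.29 CPM in the blood of DSS mice 1, 7 and 9 and 4.04, 2.71 and 2.95 CPM in that of control mice 2, 4 and 8. The log2 fold change was -0.94 (SE 0.27, edgeR's quasi-likelihood test, adjusted p = 0.246). miR-3066-5p was 0.403, 0.0645 and 0.0462 CPM in DSS mice and 1.75, 0.518 and 0.475 CPM in controls, and control mouse 2 stood apart. Its log2 fold change was -2.22 (SE 0.80, adjusted p = 0.360 by the same test, 0.00282 without the filter), -1.31 without mouse 2 and -3.83 without mouse 1. miR-5620-5p and miR-7213-5p were also below the controls in every DSS mouse, with log2 fold changes of -0.87 and -1.27. With a mouse left out these were -0.97 to -0.55 and -1.81 to -0.77, and miR-7213-5p was lowest in DSS mouse 1 at 0.302 CPM.

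Among the members above the controls in the blood of every DSS mouse, miR-8114 overlaps an exon of Glul, the gene of glutamine synthetase. It was 33.8, 13.7 and 12.9 CPM in DSS mice 1, 7 and 9 and 10.6, 11.3 and 11.3 CPM in control mice 2, 4 and 8. DSS mouse 1 stood far above the other 5 mice. The log2 fold change was 0.87 (SE 0.38, edgeR's quasi-likelihood test, adjusted p = 0.420), and 0.32 without mouse 1. miR-7087-5p, miR-5132-5p over an exon of Irak1, a kinase of interleukin-1 and Toll-like receptor signalling, and miR-8091 had log2 fold changes of 1.005, 0.48 and 0.21, with adjusted p-values of 0.450, 0.568 and 0.771 by the same test. miR-7087-5p had 49 counts in DSS mouse 1 and 5 to 14 in the other 5 mice, and its log2 fold change was 0.41 without mouse 1.

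Low levels of some markers of other tissues also separated the groups in blood. The endothelial miR-126a-3p was 13.4 to 16.1 CPM in DSS mice and 30.8 to 56.6 CPM in control mice, and the liver miRNA miR-122-5p was 6.37 to 10.6 CPM and 15.9 to 191 CPM. The epithelial miRNAs summed to 950.4 to 1123 CPM and 1129 to 1324 CPM. All 3 lists were lower in every DSS mouse. By edgeR 0 of their miRNAs were SDE, with 4 at an unadjusted p under 0.05, and DESeq2's Wald test called miR-126a-3p, miR-122-5p and the epithelial miR-215-5p lower, as edgeR without the filter did for miR-126a-3p and miR-122-5p. The myeloid miRNAs summed to 26.3 to 60.7 CPM in DSS mice and 26.6 to 29.4 CPM in control mice and overlapped. Of these, miR-223-3p was called higher by DESeq2 and by edgeR without the filter, and neither was SDE by edgeR with it, with 1 at an unadjusted p under 0.05. The listed erythroid, smooth muscle and striated muscle markers overlapped between the groups in their sums and were not SDE by edgeR. No marker was at 0, and the part of the markers in the members' differences was not tested.

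**Figure D3:**
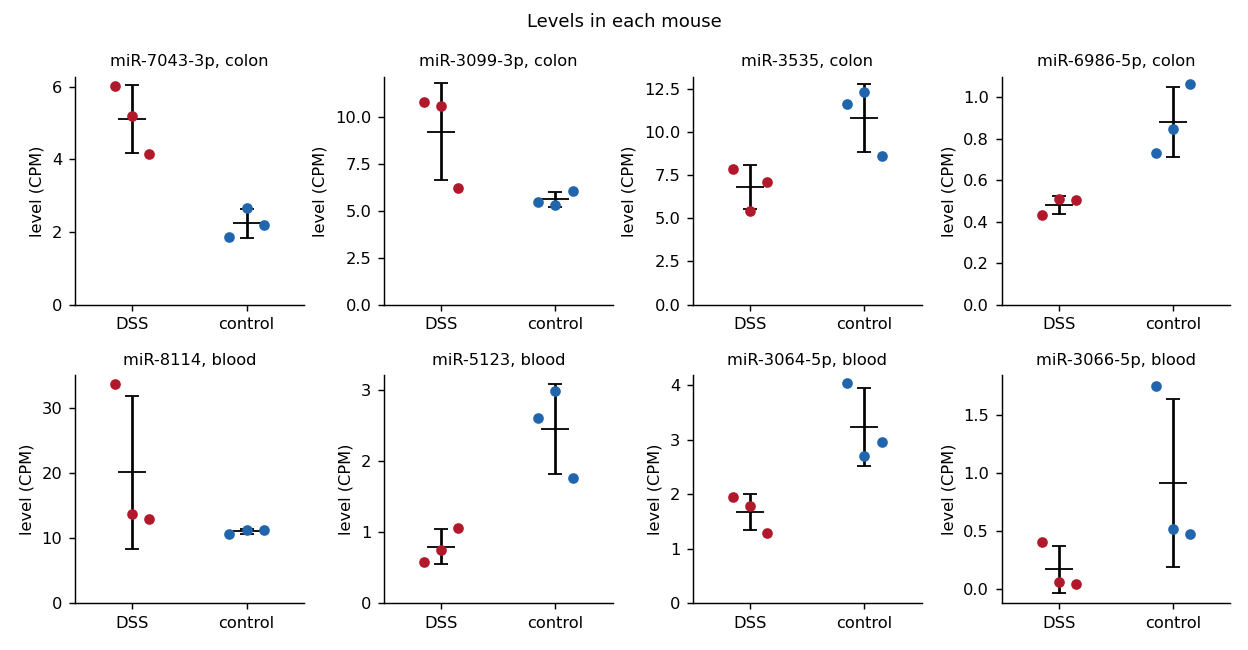
Levels (CPM, vertical axes from 0 or just below) of 4 members in colon and 4 in blood, with a point for each mouse and the mean and SD of the 3 DSS and the 3 control mice. The groups do not overlap in any panel, and of the 8 members miR-7043-3p in colon was SDE.

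The difference of the DSS effect between the tissues was tested over all 12 libraries. Of 143 members, 0 were called (background 0%), 11 had an unadjusted p under 0.05 beside 13.8% of all 680 miRNAs, and DESeq2's Wald test called 0 members. Without the filter edgeR called 4 of 144 members, 2.78% beside a background of 1.92%. The smallest p belonged to miR-5123, with a difference of log2 fold changes, blood minus colon, of -2.44 (SE 0.67, edgeR's quasi-likelihood test, adjusted p = 0.142), and of -3.72 without mouse 8. miR-7001-5p, miR-5100 and miR-5132-5p followed with 4.21, 2.53 and 1.29 and an adjusted p of 0.30 each. miR-7001-5p had 6 counts in colon, all in control mice 4 and 8, and miR-5100 was 2.20 CPM in the colon of control mouse 2 and at most 0.483 CPM in the other 5 mice. The difference was 2.54 for miR-7001-5p without mouse 8 (edgeR's quasi-likelihood test, adjusted p = 0.483) and 1.07 for miR-5100 without mouse 2 (adjusted p = 0.644). Over all 6 mice without the filter on low counts, miR-5100 had an adjusted p of 0.0141.

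A member whose groups were separated in both tissues, in opposite directions, was miR-6900-3p, at the end of an intron of Ndufa10, a subunit of respiratory complex I. It was named after its values had been seen. In colon it was 1.15, 0.733 and 0.697 CPM in DSS mice and 0.533, 0.362 and 0.501 CPM in control mice. In blood it was 1.13, 2.64 and 2.49 CPM in DSS mice and 3.73, 3.05 and 4.07 CPM in control mice. The log2 fold change in blood was -0.81 (edgeR's quasi-likelihood test, adjusted p = 0.415), and leaving out a mouse moved it between -0.99 and -0.44. In colon the fitted value was 0.85, and between 0.60 and 0.99 after a mouse was left out. miR-6900-3p passed the colon filter through the DSS mice alone, where it was high. The colon difference is therefore a description, and no p is given for it.

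A group of members in colon varied between single libraries far more than between the DSS and control mice. Of the 51 members with at least 100 counts in colon, 12 had a highest library over 5 times the lowest (23.5%), and 26 of 428 other entries did (6.07%). In blood the shares were 11 of 117 (9.4%) and 28 of 311 (9%). The median ratio of highest to lowest was 2.29 for members and 1.93 for other entries in colon, and 1.89 and 2.21 in blood.

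miR-6538, from an intron of Rnf144a and made almost only of G and C, had the widest range. It was 74.6, 1.52 and 7.24 CPM in the colon of DSS mice 1, 7 and 9 and 184, 0.543 and 0.376 CPM in that of control mice 2, 4 and 8. miR-5126, as rich in G and C, stood at 43.2, 11.4 and 8.40 CPM in DSS mice against 157, 2.17 and 3.45 CPM in controls. Control mouse 2 was highest and DSS mouse 1 next in both, so the groups overlapped, and the SE of their log2 fold changes was 2.13 and 1.52.

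The same order of control mouse 2 first and DSS mouse 1 second was found in miR-3963, miR-3968, miR-3470a, miR-3470b, miR-3473b, miR-3473e and miR-5128. This group was formed after the values had been seen, so the shared order is a description. Other members with a colon ratio over 5 did not share it. miR-3102-3p was highest in control mouse 8 (8.15 CPM) and lowest in DSS mouse 1 (0.287 CPM). miR-3105-3p was highest in control mouse 4 and miR-12191-3p in DSS mouse 1. miR-3963 was 34.4, 0.958 and 16.5 CPM in DSS mice and 43.3, 4.17 and 11.6 CPM in control mice. miR-3470a was 10.7, 1.47 and 1.59 CPM in DSS mice and 16.3, 0.664 and 1.50 CPM in control mice. miR-3473b was 9.10, 1.13 and 7.28 CPM in DSS mice and 16.3, 1.51 and 4.58 CPM in control mice.

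The sequences of miR-3470a, miR-3470b and miR-3473b were found whole in several annotated noncoding transcripts, so these reads need not come from the named hairpin. miR-3963 and miR-3968 share the run AUCCCA shown above, and miR-3968 ends in CCA. These 9 members made up 34.7% of the members' counts in the colon of DSS mouse 1 and 58.3% in that of control mouse 2, against 4.25% to 15.7% in the other 4 colon libraries. Without them the members' share of a colon library was 0.0274% to 0.0396%.

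In blood, control mouse 4 stood apart for some of the same members. miR-6538 was 209 CPM in it and 22.7 to 42.1 CPM in the other 5 mice, miR-3963 was 73.0 CPM and 3.05 to 17.7 CPM, and miR-3968 was 14.4 CPM and 1.89 to 5.12 CPM. miR-5126 did not follow, at 277 CPM in control mouse 4 and 193 to 270 CPM in the others. miR-3074-5p was 68.3 to 100.1 CPM over the 6 blood libraries. Control mouse 4 was the highest blood library for 39 of 117 members and 48 of 311 other entries. Each other blood library was highest for 13 to 23 members. miR-5123, miR-5620-5p and miR-7213-5p were highest in control mouse 4 and lowest in DSS mouse 1. These libraries had the lowest and the highest TMM factor in blood (0.734 and 1.327), and the part of the library in the members' differences was not tested.

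**Figure D4:**
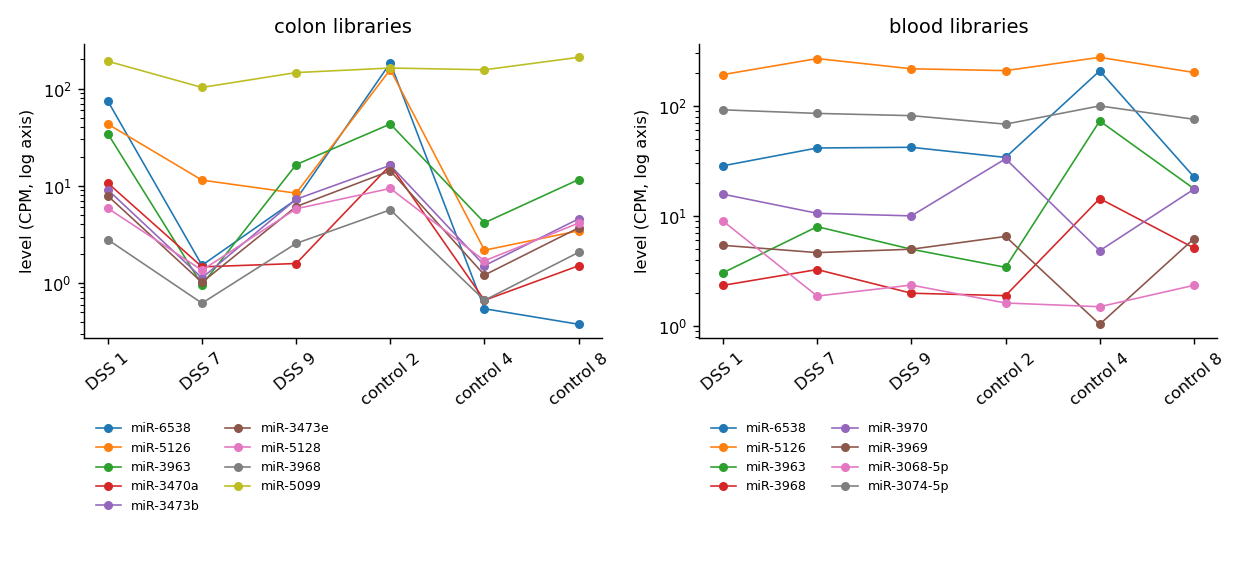
Levels (CPM, log scale) of selected members, most of them with a wide range between libraries. A point stands for each library of colon (left, with miR-5099 for comparison) and blood (right, with miR-3074-5p for comparison). Lines join 1 member's points and imply no order of the mice. In the colon members shown, apart from miR-5099, control mouse 2 and DSS mouse 1 are highest. In blood control mouse 4 is highest for miR-6538, miR-3963 and miR-3968.

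Members that differ in few bases from an abundant miRNA were at a small fraction of its reads. Positions are counted from 1 at the 5′ end of the known miRNA, whose base is given first. miR-3962 differs from let-7g-5p at G20U, miR-3970 from let-7i-5p at A7U and G20U, and miR-3969 from miR-142a-5p at A2C and G14U. let-7 miRNAs are expressed in most differentiated cells, and miR-142 is a miRNA of blood cells. miR-3962, miR-3969 and miR-3970 were named after their values had been seen.

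miR-3962 held 0.0214% to 0.0357% of the summed reads of itself and let-7g-5p in the colon libraries and 0.0172% to 0.0476% in the blood libraries. For miR-3970 beside let-7i-5p the shares were 0.0188% to 0.0517% and 0.0151% to 0.0911%. miR-3969 beside miR-142a-5p gave 0.0312% to 0.171% and 0.0336% to 0.126%. Whether these reads came from the named hairpin or from the known miRNA was not tested.

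The lowest shares of miR-3970 and miR-3969 lay in the libraries that stood apart above. miR-3962 followed in colon, with its lowest share in control mouse 2 (0.0214%). In blood its lowest share was in DSS mouse 9 (0.0172%, 3 reads), with 0.0194% in control mouse 4. In blood control mouse 4, miR-3970 held 0.0151% (84 reads, exact 95% interval 0.0121% to 0.0187%), below the 0.0579% to 0.0911% of the other blood libraries. In colon DSS mouse 1 it held 0.0188% (59 reads, 0.0143% to 0.0242%), below the 0.0372% to 0.0517% of the others. miR-3969 held 0.0336% in blood control mouse 4 (18 reads, 0.0199% to 0.0531%) and 0.0885% to 0.126% in the other blood libraries. In colon it had 2 reads in DSS mouse 1 and 1 in control mouse 2, and the part of the library in these shares was not tested.

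**Figure D5:**
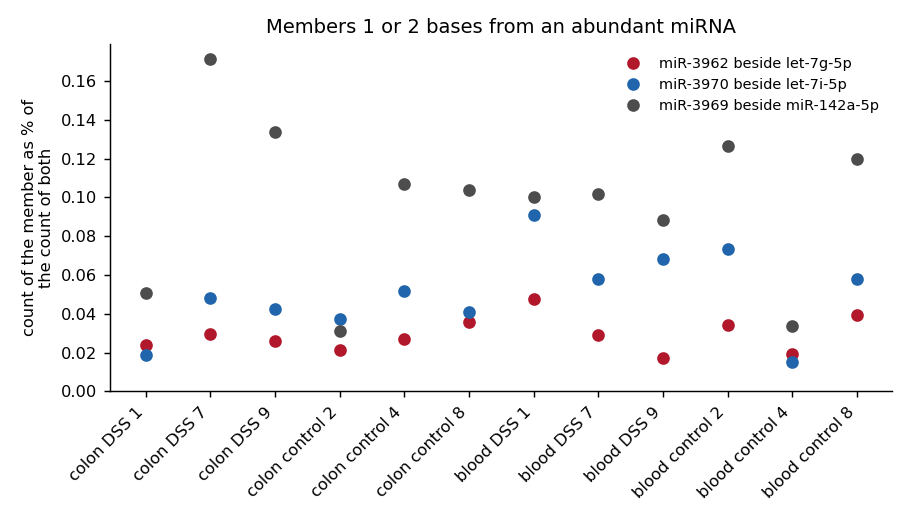
Reads of miR-3962, miR-3970 and miR-3969 as a percentage of the summed reads of each and its near-identical known miRNA (vertical axis from 0), for each of the 12 libraries. miR-3970 is lowest in blood control mouse 4 at 0.0151% and highest in blood DSS mouse 1 at 0.0911%.

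Members that are found whole in another short noncoding RNA numbered 6. Besides miR-3535, miR-3470a, miR-3470b and miR-3473b these were miR-7650-5p, in the snoRNA Gm25500 inside Taf1d, and miR-6516-5p, in the small Cajal body RNA Gm26083 inside Snhg20. The mean level (± SD, n = 6) of miR-6516-5p was 2.17 ± 0.347 CPM in colon against 0.579 ± 0.239 CPM in blood. That of miR-7650-5p was 0.0304 ± 0.0472 CPM against 0.784 ± 0.391 CPM, so miR-6516-5p was higher in every colon library and miR-7650-5p in every blood library. Both passed the filter through the tissue where they were high, and these differences are a description.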

How the data were processed

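Small RNA of the colon and the blood of 6 mice was sequenced in 12 libraries. The authors trimmed adapters with Flexbar, collapsed identical reads with the fastx-toolkit and counted reads per mature miRNA with the miRDeep2 quantifier against miRBase. The deposited counts are whole reads per entry. The deposited signal values are these counts after division by size factors estimated within each tissue. The submitters' processing notes name GRCm38 and DESeq2, and the authors' own columns of fold changes and p-values were not used.

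Counts were tested with edgeR (4.0.16, R 4.3.3), with filterByExpr (minimum count 10), TMM factors and quasi-likelihood fits, in each tissue alone for DSS against control and over all 12 libraries for the tissues and the interaction. CPM values use the factors of the fit they belong to. P-values were adjusted by the Benjamini-Hochberg method over all miRNAs tested, with limits of 0.05 and a fold change of 1.5. Alternatives were DESeq2 (1.42.0), limma (3.58.1) on log2 of the deposited values plus 1, other scalings, no filter, identical sequences kept once, each mouse left out, the labels' grouping and a replicate block. The steps were tested on simulated data with 200 changed miRNAs, of which 142 were recovered in colon, 126 in blood, 162 between tissues and 37 in the interaction.

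Hairpins and introns were read from GENCODE (GRCm38) and RefSeq positions. Named members were those the study lists, the 6 of highest level per tissue, up to 5 per direction with separated DSS and control mice and the smallest p, the 4 smallest interaction p-values, the 4 largest tissue differences per direction, the 4 hairpins with both arms of highest count, those at the limit, and the 2 of highest count per class of origin or sequence match. Members and lists were chosen with earlier results of these data known.

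Same-numbered colon and blood libraries come from the same mouse. The deviations of the 2 libraries of a mouse from their group means had correlations from -0.297 to 0.158 over 357 miRNAs. DSS and control mice share no number.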

Additional observations from a re-analysis of the deposited data

Results flagged for a closer look

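miR-6900-3p moved in opposite directions in the tissues, above every control mouse in the colon of all 3 DSS mice and below every control mouse in their blood. The colon values of miR-6900-3p rest on 69 counts in all, and it passed the colon filter through the DSS mice alone. The difference of its log2 fold changes, blood minus colon, was -1.38 (SE 0.56, edgeR's quasi-likelihood test, unadjusted p = 0.0272, Benjamini-Hochberg adjusted p = 0.30), so it did not pass the correction over 680 miRNAs. With a mouse left out the difference was -1.74 to -0.92.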

How the results depend on the processing

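Among the members, the count higher in the colon of DSS mice was 1 and became 0 with RLE factors, 0 with the labels' grouping, 0 with all 12 libraries in 1 fit and 2 with total counts alone, and 0 to 2 with a mouse left out. The count lower was 0 and became 1 with DESeq2, and 0 to 1 with a mouse left out. Over all miRNAs the colon calls numbered 55, and 0 without mouse 2, 4, 7 or 8, 44 without mouse 1, 37 without mouse 9, 16 with RLE factors, 74 with DESeq2 and 0 with all 12 libraries in 1 fit. In blood the counts of members were 0 and became 1 higher and 5 lower without the filter, and the interaction count of 0 became 4 without it (2.78% of members, 1.92% of all miRNAs). With a mouse left out the blood and interaction counts stayed at 0. The cause of these changes was not tested.

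With a replicate block for the mouse, 109 members were higher in blood and 22 in colon, against 109 and 23 without it, and the interaction count was 0. With a mouse left out these tissue counts were 101 to 109 and 21 to 24. DSS against control could not be paired, since the groups share no mouse.

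The labels' grouping called 0 of 542 miRNAs in colon and 0 of 484 in blood by edgeR, with 20 and 14 at an unadjusted p under 0.05. It reversed 17 single log2 differences. In colon these became -0.14 (miR-7043-3p), 0.59 (miR-3535), -0.086 (miR-3099-3p), -0.36 (miR-5107-5p), -0.0202 (miR-7219-3p), 0.36 (miR-7084-5p), 0.68 (miR-7049-5p) and 0.0413 (miR-3474). In blood they became -0.26 (miR-5132-5p), -0.0098 (miR-8091), 0.75 (miR-5123), 0.51 (miR-3064-5p), 2.09 (miR-3066-5p) and 0.41 (miR-7213-5p). For the interaction they became 1.48 (miR-5123), -2.74 (miR-5100) and -0.91 (miR-5132-5p). Of 455 alternative values of named members, 425 kept direction and side of the threshold, 7 lost a call and 6 gained one.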
